A study of Rattus norvegicus with 10 samples.

Results

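The genes described here are Myc and 37 genes of ribosome biogenesis, taken as a fixed list of 38 symbols that was looked up in a count table of neonatal rat heart cells. All 38 were found among the 28522 gene symbols of the table, and all 38 passed the filter on low counts that left 13869 genes to test. RNA was sequenced from 10 libraries in 4 groups: cardiomyocytes in serum-free medium with 10 µM phenylephrine (n = 3), cardiomyocytes in serum-free medium alone (n = 3), cardiac fibroblasts in serum-free medium with 10 µM phenylephrine (n = 2) and cardiac fibroblasts in serum-free medium alone (n = 2). Cardiomyocytes are the contractile cells of the heart, fibroblasts make its matrix, and phenylephrine activates alpha1-adrenergic receptors and serves as a standard hypertrophic stimulus for cardiomyocytes in culture. Both cell types came from ventricles of rats 1 to 3 days old by enzymatic digestion and a Percoll gradient, and the test medium was given 24 h after plating. The labels state neither strain, sex nor time in phenylephrine. Cardiomyocytes were not passaged whereas the fibroblasts had been passaged to passage 2, and the effects of passage and of cell type cannot be told apart. Since no label says if a replicate is a culture or an animal of its own, the p-values measure the spread between these libraries, which may be technical.

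Ribosomes are assembled in the nucleolus. RNA polymerase I transcribes the precursor of the ribosomal RNAs, small nucleolar ribonucleoproteins guide its chemical modification, and a large set of assembly factors folds, cuts and exports the small and the large subunit. Myc is a transcription factor that binds E-box sequences together with Max and is known to drive many of these genes, and a rise in ribosome production is a known feature of hypertrophic growth of the heart muscle cell.

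Total counts ran from 18048944 to 22794744 per library, and levels are given as CPM, the count divided by the effective library size after trimmed-mean scaling and multiplied by a constant. The 7 cardiomyocyte markers summed to 43360 to 49760 CPM in cardiomyocytes with phenylephrine, 39500 to 41500 CPM in cardiomyocytes without it, 546 to 557 CPM in fibroblasts with it and 598 to 614 CPM in fibroblasts without it. The 8 fibroblast markers summed to 12380 to 19170, 9624 to 15650, 65340 to 67740 and 55420 to 63630 CPM in the same 4 groups, so fibroblast markers were measured in the cardiomyocyte libraries too. A pair of cardiomyocyte libraries stood apart from the others of their group. Against its mates, cardiomyocyte phenylephrine replicate 1 differed with a chi-square per degree of freedom of 19.4 and 24.0, while the mates differed from each other by 3.11. Serum-free cardiomyocyte replicate 2 differed from its mates by 23.2 and 23.9, while these differed from each other by 4.40. Both carried more fibroblast marker RNA than their mates (19170 against 12380 and 12930 CPM with phenylephrine, 15650 against 9624 and 10650 CPM without it). Other marker sums differed too. Serum-free replicate 2 had more of dividing cells (890 against 594 and 564 CPM) and of smooth muscle and pericytes (637 against 365 and 355 CPM). Phenylephrine replicate 1 had less of dividing cells (819 against 964 and 958 CPM) and about as much of smooth muscle and pericytes (710 against 706 and 706 CPM). Results that rest on these libraries are given with and without both. In fibroblasts the chi-square per degree of freedom was 2.51 between the phenylephrine libraries and 15.6 between the serum-free ones.

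As a group, the 38 genes took up a small and steady part of the messenger RNA in every library. Their summed level was 3076, 3084 and 2958 CPM in cardiomyocytes with phenylephrine, against 3212, 3070 and 3176 CPM in cardiomyocytes without it. It was 3470 and 3523 CPM in fibroblasts with phenylephrine, against 3695 and 3417 CPM in fibroblasts without it. All 6 cardiomyocyte libraries therefore lay below all 4 fibroblast libraries, while the libraries with and without phenylephrine overlapped in each cell type. In bulk RNA, fewer cells of a type and less RNA per cell cannot be told apart. The genes Nhp2 (5 to 15 counts per library), Ebna1bp2 (4 to 13) and Heatr1 (20 to 30) were so low that only large changes could have been seen, and they account for the widest intervals below. Whether the annotation used for counting held these genes whole is not given in the sources used here. Of the 71 ribosomal protein symbols in the table, 8 were listed at 0 in every library, among them Rpl8, Rps6 and Rpl7a, so a low or zero count in the table is not by itself a measure of low expression.

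**Figure D1:**
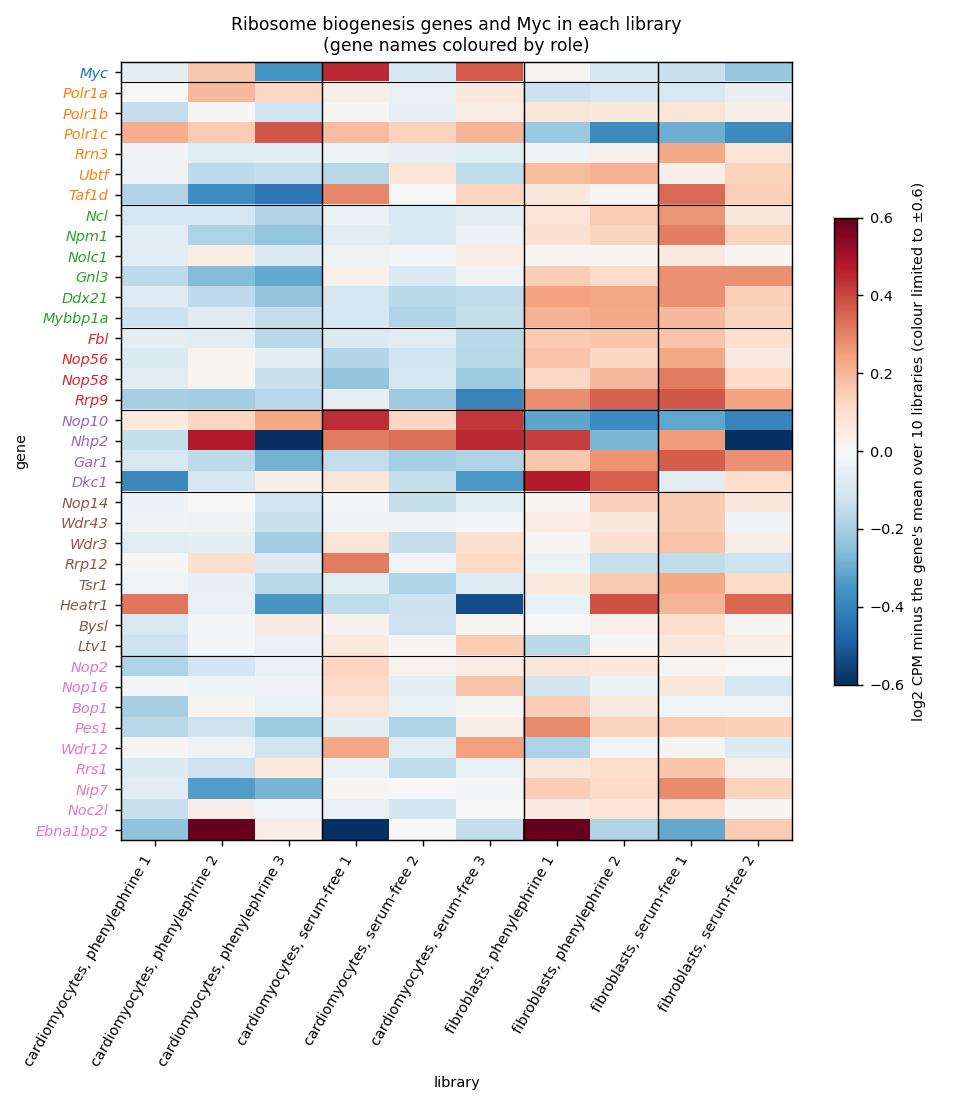
Level of each of the 38 genes in each of the 10 libraries, as log2 CPM minus the mean of that gene over the 10 libraries (red above the mean, blue below it). Rows are genes ordered by role and columns are libraries. The box C/D proteins and most nucleolar proteins are blue in cardiomyocytes and red in fibroblasts, Nop10 and Polr1c are the other way round, and the strong colours of Nhp2, Heatr1 and Ebna1bp2 come from 4 to 30 counts per library.

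Myc did not pass the test in any of the 5 contrasts. Its level was 45.8, 53.3 and 37.2 CPM in cardiomyocytes with phenylephrine, against 65.0, 44.4 and 61.4 CPM in cardiomyocytes without it. The libraries overlapped because serum-free replicate 2, one of the pair that stood apart, lay far below its mates. The fitted log2 difference was -0.33 ± 0.16 (standard error, edgeR adjusted p = 0.256), with a 95% interval from -0.68 to 0.022. Without serum-free replicate 2 Myc was called lower with phenylephrine (log2 -0.48, edgeR adjusted p = 0.0237), and without both libraries that stood apart it was just short of the threshold (-0.48, adjusted p = 0.0504). Calls over all genes rose in these fits, to 2371 of 13832 and 3486 of 13786 genes in either direction. With all libraries 1.79% of genes were called higher and 1.84% lower. In fibroblasts Myc had 47.9 and 44.2 CPM with phenylephrine, against 43.4 and 40.6 CPM without it (log2 0.13 ± 0.19, edgeR adjusted p = 0.775), so the libraries did not overlap but lay close together. The responses of the cell types differed by -0.46 ± 0.25 (edgeR adjusted p = 0.349 for the interaction).

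Between cell types, Myc was 1.36-fold higher in serum-free cardiomyocytes than in serum-free fibroblasts, at the edge of the test (log2 0.44 ± 0.18, edgeR adjusted p = 0.0503), and all 3 cardiomyocyte libraries were above both fibroblast libraries. This call turned on settings: it passed with DESeq2 (adjusted p = 0.0266) and without serum-free cardiomyocyte replicate 2 (log2 0.59, adjusted p = 0.00292), and it did not with limma-voom (adjusted p = 0.0617) or without serum-free fibroblast replicate 2 (adjusted p = 0.205). With phenylephrine the levels overlapped and the difference was -0.022 ± 0.18 (edgeR adjusted p = 0.921). The wide standard errors of Myc, against a median of 0.067 over the 38 genes for phenylephrine in cardiomyocytes, come with its spread between cardiomyocyte libraries.

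**Figure D2:**
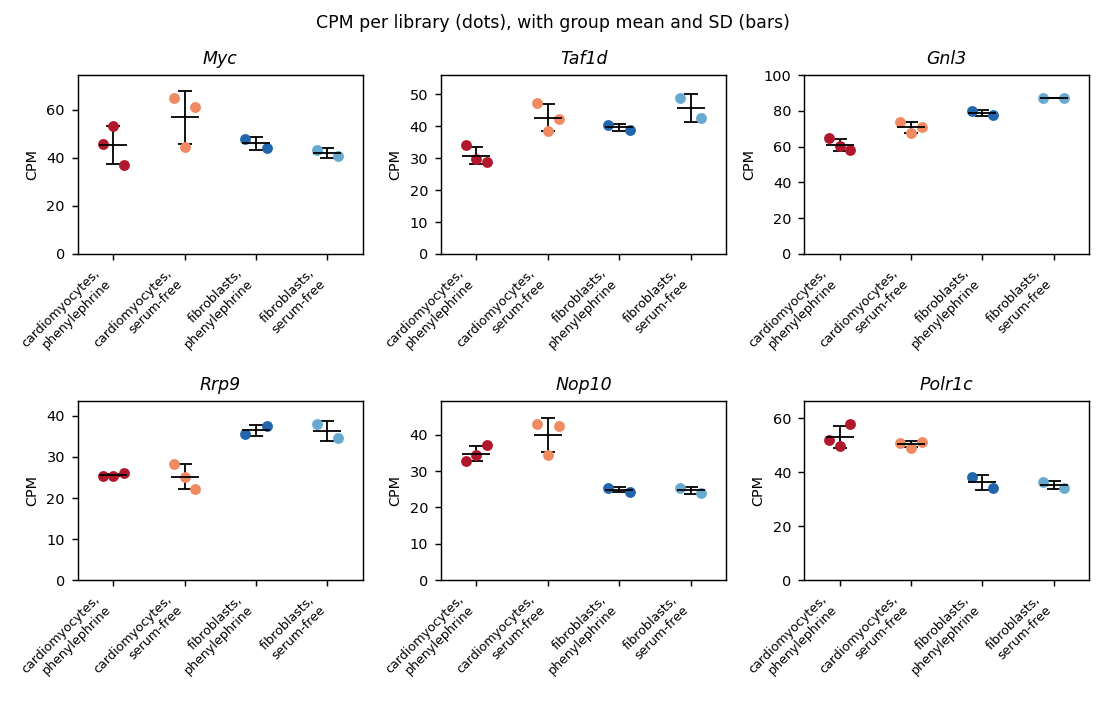
CPM of Myc, Taf1d, Gnl3, Rrp9, Nop10 and Polr1c in each library (dots), with the group mean and SD (bars, n = 3 for each cardiomyocyte group and 2 for each fibroblast group). Myc overlaps between cardiomyocytes with and without phenylephrine, Taf1d does not, Gnl3 and Rrp9 are lower and Nop10 and Polr1c higher in cardiomyocytes than in fibroblasts under both media.

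Myc binds the palindromic E-box CACGTG, so the promoters of the other genes were searched for it in RefSeq sequences of the rat build GRCr8, from 250 bases before to 50 bases after each annotated start. Of the 38 genes, 34 had a sequence in the table, and Myc, Bop1, Wdr43 and Rrs1 did not. The E-box was found in 11 of the 34 windows (32.4%), against 6.42% of all 33469 windows of the table and 9.18% of the 9880 windows of genes tested. The matches are shown with up to 12 bases on either side, in the direction of transcription, with the E-box in capitals. They are printed because E-boxes of this form are the sites through which Myc is known to act, and because they fall in all roles but polymerase I transcription.
Fbl, chr1:92597416-92597445, plus strand: ggcgcttttttcCACGTGtgaaagcctgag
Nop2, chr4:159618992-159619015, plus strand: cttccccaagtgCACGTGgagcgg
Dkc1, chrX:157751455-157751484, plus strand: agcgtcccggcgCACGTGcgggccccaccc
Pes1, chr14:83074284-83074313, plus strand: ccctaagcggggCACGTGcggtaggaagta
Rrp12, chr1:250655298-250655327, minus strand: gctgagaatacaCACGTGggttctgctgtg
Tsr1, chr10:60258798-60258827, plus strand: gtttactcggtgCACGTGggcagttagaat
Gnl3, chr16:6219790-6219819, minus strand: agttccagttcgCACGTGgcgcccgagacg
Mybbp1a, chr10:57555290-57555319, plus strand: gcagtttctacaCACGTGtgcgagcacagg
Mybbp1a, chr10:57555445-57555474, plus strand: gtctttcgagccCACGTGtttggttcagca
Bysl, chr9:20880361-20880390, plus strand: tagccggcttcaCACGTGtaaactttgtgg
Ltv1, chr1:9398601-9398630, minus strand: gacctgtctaccCACGTGtagagctgccgg
Ebna1bp2, chr5:137433552-137433581, plus strand: gcgtcttgctggCACGTGgagtggcagccg
Mybbp1a, a nucleolar protein that binds Myb, held a pair of matches and each of the other 10 genes held 1. A match is a description of the letters in the window, and binding was not measured.

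Other promoter words were compared in the same windows, each on both strands. CCGGAAG, the core of the sites of ETS factors, was in 17 of 34 windows (50%), against 8.75% of all windows and 16.7% of those of genes tested. The CGCG palindrome of housekeeping promoters, a longer element, was in the window of Npm1 alone (2.94%, against 0.373% and 0.931%). AAGATGGC, the core of the YY1 site, was in that of Nip7 alone (2.94%, against 3.17% and 5.4%). The median GC content was 59.3% in the 34 windows, 51.7% in all windows and 61% in those of genes tested. The 250 bases before the start are shown for Taf1d, the only one of the 38 genes called with phenylephrine, and for Polr1c, which was higher in cardiomyocytes in both media and held CCGGAAG. Capitals mark CCGGAAG, and the Taf1d stretch held none of the 4 elements.
Taf1d, chr8:20427726-20427975, plus strand: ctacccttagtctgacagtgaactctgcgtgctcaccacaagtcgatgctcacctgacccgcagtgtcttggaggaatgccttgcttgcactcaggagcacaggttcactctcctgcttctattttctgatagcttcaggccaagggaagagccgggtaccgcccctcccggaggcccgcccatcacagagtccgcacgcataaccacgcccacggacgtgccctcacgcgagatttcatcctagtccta
Polr1c, chr9:22233068-22233317, plus strand: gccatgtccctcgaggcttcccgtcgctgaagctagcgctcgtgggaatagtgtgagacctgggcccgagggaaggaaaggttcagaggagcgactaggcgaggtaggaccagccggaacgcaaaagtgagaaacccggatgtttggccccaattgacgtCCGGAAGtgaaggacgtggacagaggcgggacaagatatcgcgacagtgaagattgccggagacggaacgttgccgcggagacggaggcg
For the 11 genes with an E-box and the 23 without one, median log2 differences were -0.011 with an E-box and -0.031 without one for phenylephrine in cardiomyocytes, 0.053 and -0.048 for phenylephrine in fibroblasts, -0.21 and -0.16 between cell types without phenylephrine, and -0.18 and -0.19 between cell types with it.

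**Figure D3:**
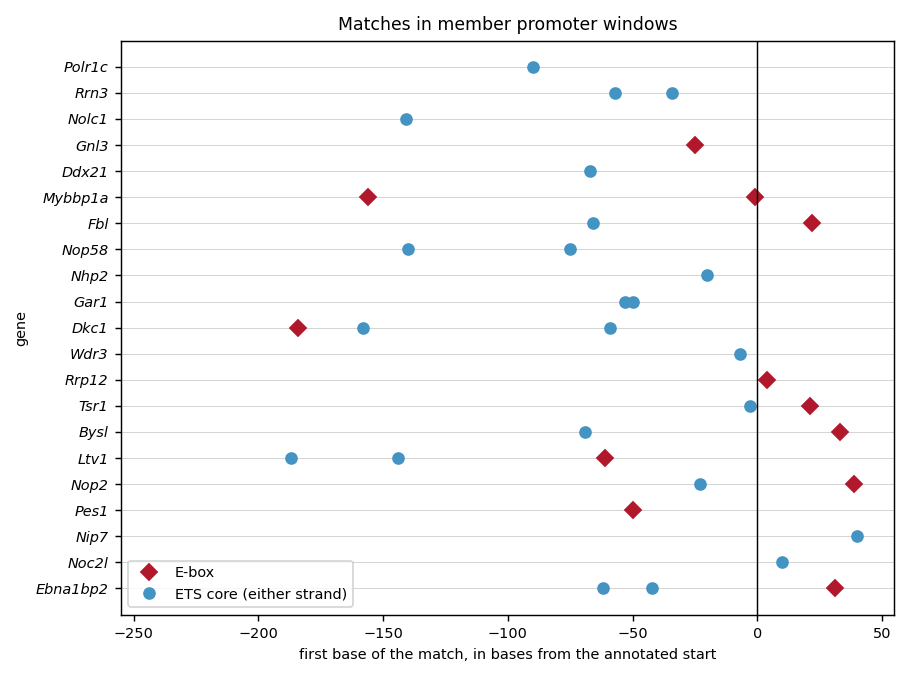
Position of each match of the E-box (red diamonds) and of the ETS core on either strand (blue circles) in the promoter windows, in bases from the annotated start (vertical line), for the genes with a match. E-boxes were found in 11 windows and the ETS core in 17, and most ETS core matches lie before the start.

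In cardiomyocytes 1 of the 38 genes passed the test with phenylephrine. None was called higher and 1 was called lower, Taf1d, by edgeR's quasi-likelihood test at a Benjamini-Hochberg adjusted p below 0.05 over all genes, where 1.79% of all genes tested were called higher and 1.84% lower. At an unadjusted p below 0.05 there were 5 genes, Taf1d, Gnl3, Nip7, Nop2 and Nop10, and all 5 were lower with phenylephrine. The share of all genes past that unadjusted level was not counted, so no response of the 38 genes is read from it. The libraries of the groups did not overlap for 1 gene that was higher and 7 that were lower, against 10.9% and 12.2% of all genes. The median log2 difference over the 38 genes was -0.032, against -0.0013 over all genes, and the median size of the difference was 0.091, against 0.13 over all genes.

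The precision was enough to bound most of these differences in CPM, which are levels relative to the other genes of a library. RNA per cell was not measured, so a change common to most genes would not be seen. The bounds rest on the spread between these libraries, which may be technical. For 33 of the 38 genes the 95% interval lay within a 1.5-fold change in either direction, and for 23 it lay within 1.2-fold. Nucleolin (Ncl), the major RNA-binding protein of the nucleolus, had 511, 511 and 485 CPM in cardiomyocytes with phenylephrine, against 532, 514 and 526 CPM without it, a difference of -0.061 with a 95% interval from -0.20 to 0.082. Fibrillarin (Fbl), the methyltransferase of box C/D particles, differed by 0.010 (-0.11 to 0.13). Rrn3, which brings polymerase I to its initiation complex, differed by -0.0049 (-0.12 to 0.11). The largest subunit of polymerase I, Polr1a, differed by 0.091 (-0.047 to 0.23).

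Taf1d is a subunit of the SL1 complex, which recruits RNA polymerase I to the ribosomal RNA promoter. It had 34.0, 29.8 and 28.7 CPM in cardiomyocytes with phenylephrine, against 47.2, 38.6 and 42.2 CPM without it. Every library with phenylephrine lay below every library without it, and the difference was -0.47 ± 0.093 on the log2 scale, or 1.39-fold lower (edgeR adjusted p = 0.0263). Taf1d holds snoRNA genes in its introns and overlaps Cep295, and the library kit does not mark strand, so reads of these neighbours cannot be told apart from its own. It no longer passed without cardiomyocyte phenylephrine replicate 2 (adjusted p = 0.121) or 3 (0.114), without serum-free cardiomyocyte replicate 1 (0.119) or 3 (0.109), without fibroblast phenylephrine replicate 1 or 2 (0.0542 in each case), and in a fit of the compared groups alone (0.0743), while the difference stayed between -0.39 and -0.55 when each library was left out in turn.

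Without both libraries that stood apart, 6 genes were called lower and none higher. In that fit 12.1% of all genes tested were called lower, and 3486 of 13786 were called in either direction. The members' share called lower was near that of all genes, so no response of the 38 genes as a set is read from it. The 6 genes were Taf1d (log2 -0.61), Wdr12 (-0.31) and Nip7 (-0.30), both large subunit assembly factors, Gnl3 (-0.29), a nucleolar GTPase also called nucleostemin, Nop10 (-0.25), a core protein of box H/ACA particles, and Wdr3 (-0.22), a small subunit factor. Gnl3 had 64.6, 60.1 and 58.1 CPM in cardiomyocytes with phenylephrine, against 73.6, 67.5 and 71.1 CPM without it, with no overlap, and with all libraries it was short of the threshold (log2 -0.22 ± 0.057, edgeR adjusted p = 0.0606). DESeq2 called Gnl3 lower beside Taf1d.

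In the same comparison, marker sums of leukocytes and of smooth muscle and pericytes did not overlap. Those of dividing, endothelial and epicardial cells overlapped. The 10 leukocyte markers summed to 134 to 167 CPM in cardiomyocytes with phenylephrine, against 183 to 214 CPM without it, with 3 of 10 called lower. The 5 smooth muscle and pericyte markers summed to 706 to 710 CPM, against 355 to 637 CPM, with 1 of 5 called higher, and the 10 markers of dividing cells to 819 to 964 CPM, against 564 to 890 CPM, with none called. The values of 637 and 890 CPM both came from serum-free replicate 2, which stood apart. The 6 endothelial markers summed to 60.8 to 84.0 CPM, against 58.1 to 68.6 CPM, with 1 of 6 called higher, and the 5 epicardial markers to 90.4 to 126 CPM, against 103 to 116 CPM, with none called. No marker of these lists was at 0 in either group. Their part in the values above was not tested.

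In fibroblasts none of the 38 genes passed the test with phenylephrine. In edgeR's test, none was called higher or lower, while 2.06% of all genes were called higher and 1.77% lower, and 2 of the 38 were past an unadjusted p of 0.05. These were Dkc1, the pseudouridine synthase of box H/ACA particles, and Rrn3. The share of all genes past that unadjusted level was not counted. Dkc1 had 85.4 and 79.1 CPM in fibroblasts with phenylephrine, against 58.9 and 66.3 CPM without it. The libraries did not overlap, and the difference was 0.39 ± 0.15 (edgeR adjusted p = 0.193). In a fit of the fibroblast libraries alone Dkc1 was called higher (log2 0.40, edgeR adjusted p = 0.00992), and it was the only one called of the 37 members tested there, where 5.71% of all genes tested were called higher. DESeq2 and limma-voom called none of the 38. Rrn3 differed by -0.15 ± 0.065 (edgeR adjusted p = 0.246). Libraries did not overlap for 6 genes that were higher and 7 that were lower, against 26.6% and 27.8% of all genes. The median over the 38 genes was -0.015, against -0.0028 over all genes, and the 95% interval lay within 1.5-fold for 34 genes and within 1.2-fold for 22.

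The response to phenylephrine was not called different between the cell types for any of the 38 genes, by edgeR's interaction test, where 1.63% of all genes were called higher in cardiomyocytes and 1.62% lower. A single gene had an unadjusted p below 0.05, a level at which the share of all genes was not counted, and DESeq2 called none. The median difference of the responses was -0.022. For Taf1d the responses of -0.47 in cardiomyocytes and -0.21 in fibroblasts differed by -0.26 ± 0.15 (edgeR adjusted p = 0.350), and without both libraries that stood apart by -0.40 (adjusted p = 0.0214).

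**Figure D4:**
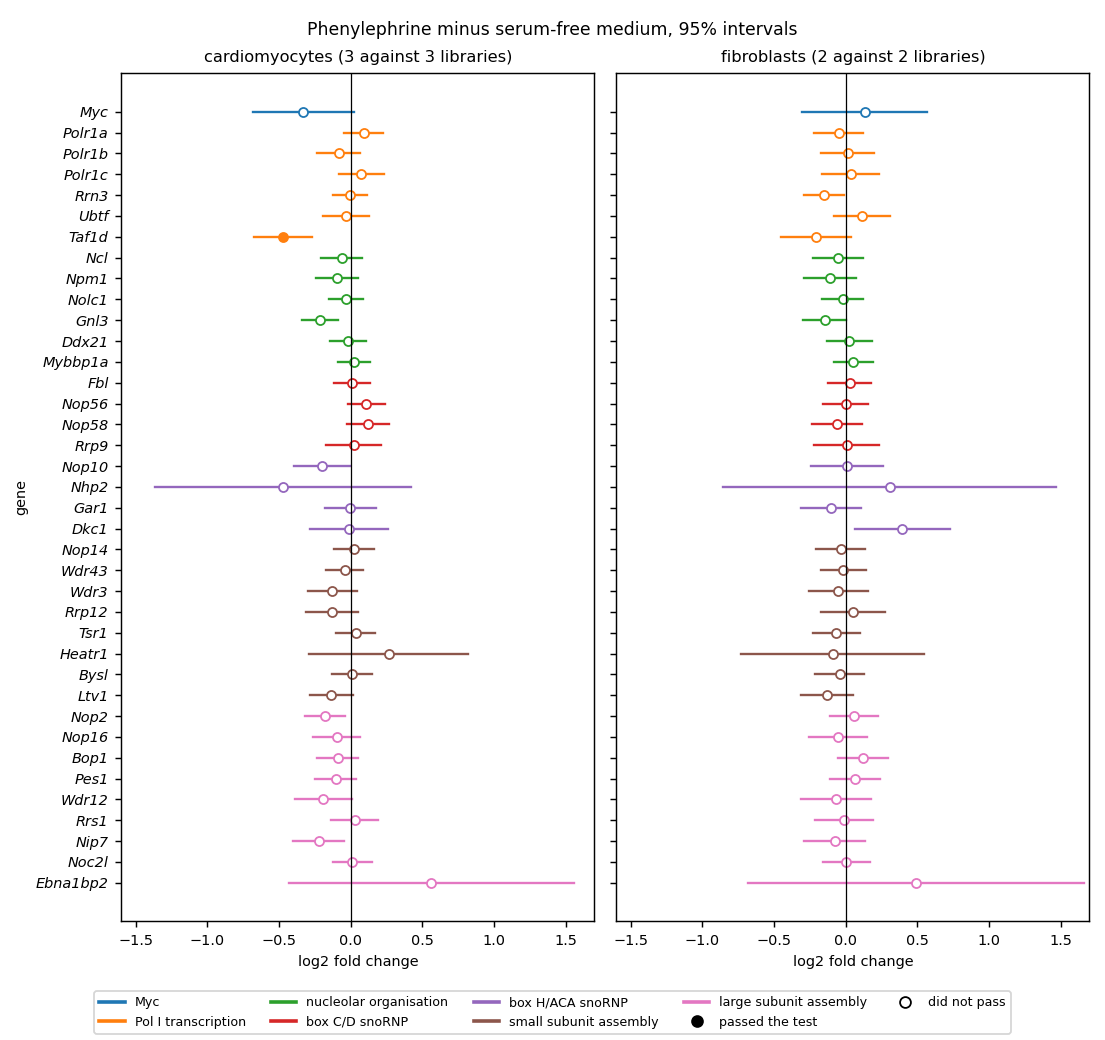
Log2 fold change of each gene with phenylephrine over serum-free medium alone, in cardiomyocytes (left) and fibroblasts (right), with 95% intervals from edgeR. Filled points passed the test, and Taf1d in cardiomyocytes is the only one, while most other intervals include 0.

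Cell type made a larger difference than phenylephrine. In serum-free medium, 14 of the 38 genes were lower in cardiomyocytes than in fibroblasts and 3 were higher (36.8% and 7.89%), where 31.7% of all genes were called lower and 34.5% higher. With phenylephrine, 17 were lower and 3 higher (44.7% and 7.89%), where 31.2% of all genes were called lower and 33.7% higher. The libraries of the cell types did not overlap for 18 genes that were lower and 7 that were higher in serum-free medium, against 37.5% and 39.6% of all genes, and for 25 and 4 with phenylephrine, against 39% and 40.4%. The median log2 difference over the 38 genes was -0.16 in serum-free medium, against 0.018 over all genes, and -0.18 with phenylephrine, against 0.016. Differences were small: the median size was 0.21 in serum-free medium, against 0.51 over all genes, and 0.19 with phenylephrine, against 0.50.

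The calls in the 2 media came from separate libraries, but from 1 model with a shared estimate of the spread. Whether the replicate numbers pair the samples is not known, so the calls are not shown to be independent. For none of the 38 genes did the calls point opposite ways, which was also rare among all genes (50 of 13869, or 0.361%). Of the 38 genes, 12 were lower in both media and 2 higher in both, where 25.9% of all genes were lower in both and 28.6% higher in both, and 15 were called in neither (39.5%, against 23.8% of all genes). A gene called in 1 medium alone is not shown to differ between media, since the test of that difference, the interaction above, called none.

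**Figure D5:**
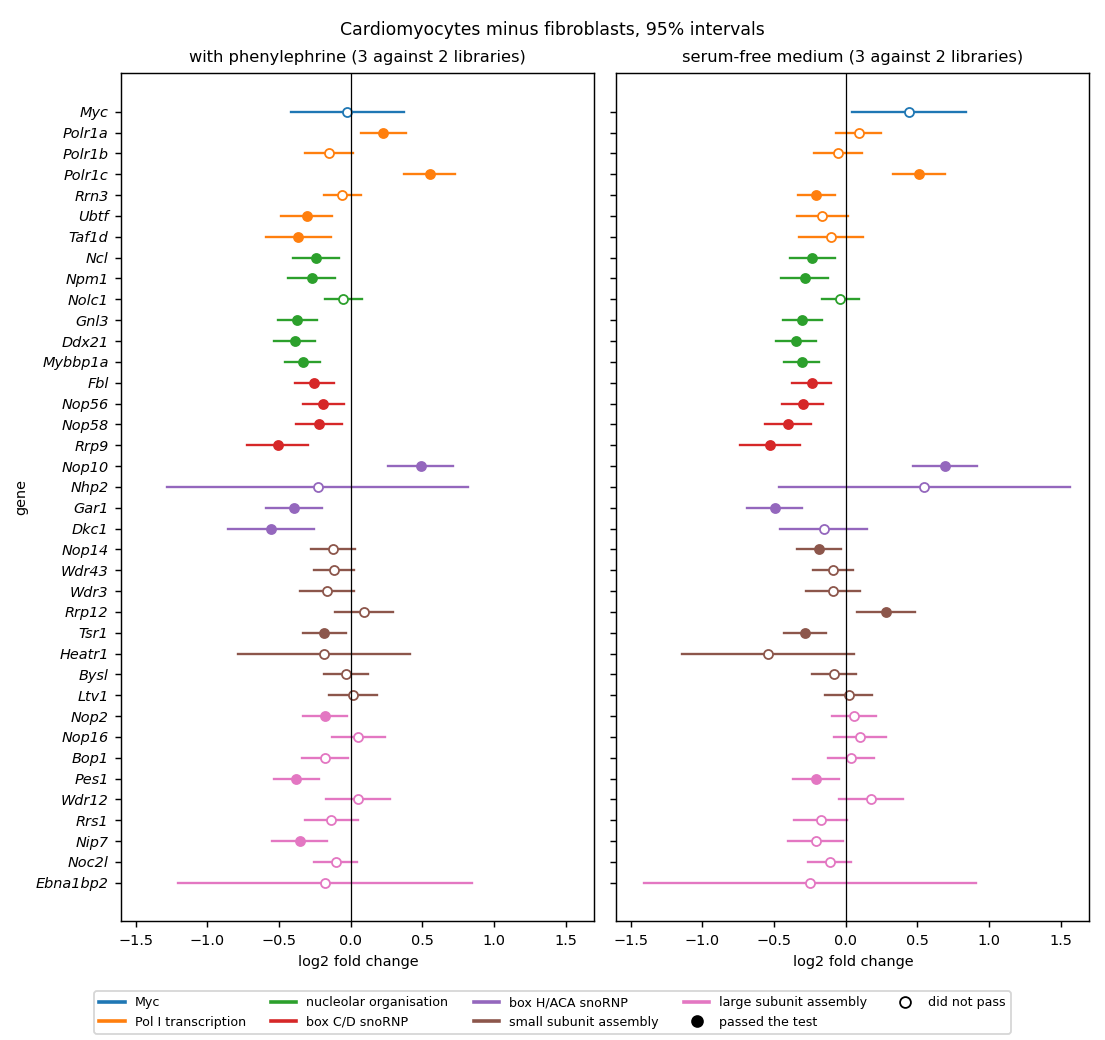
Log2 fold change of each gene in cardiomyocytes over fibroblasts, with phenylephrine (left) and in serum-free medium (right), with 95% intervals from edgeR and genes ordered by role. Filled points passed the test. All 4 box C/D proteins and 5 of 6 nucleolar proteins are filled and below 0 in both panels, and Polr1c and Nop10 are filled and above 0 in both. Of all genes tested, 25.9% were called lower in both media and 28.6% higher in both.

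All 4 genes of the box C/D particles, which guide methylation of ribosomal RNA, were called lower in cardiomyocytes in both media. Of all genes tested, 25.9% were lower in both media, and with 4 genes the share of this role is coarse. Rrp9, a protein of the U3 particle needed for cutting the small subunit precursor, had 25.5, 25.4 and 26.0 CPM in cardiomyocytes with phenylephrine, against 35.5 and 37.4 CPM in fibroblasts with phenylephrine. Without phenylephrine it had 28.3, 25.2 and 22.2 CPM in cardiomyocytes, against 37.9 and 34.6 CPM in fibroblasts. The libraries of the cell types did not overlap in either medium, and Rrp9 was 1.42-fold lower with phenylephrine (log2 -0.51 ± 0.096, edgeR adjusted p = 0.000613) and 1.44-fold lower without it (-0.53 ± 0.095, adjusted p = 0.000445). Nop58, a core scaffold of the particle, had 99.7, 105 and 95.1 CPM in cardiomyocytes with phenylephrine, against 114 and 119 CPM in fibroblasts with it, and 88.5, 96.9 and 90.0 CPM in cardiomyocytes without it, against 130 and 113 CPM in fibroblasts without it. The difference was -0.22 ± 0.074 with phenylephrine (edgeR adjusted p = 0.0204) and -0.40 ± 0.073 without it (adjusted p = 0.000452). Its partner Nop56 differed by -0.19 and -0.30, and Fbl by -0.25 and -0.24, in the same order. Nop56 overlaps Idh3b and Rrp9 overlaps Parp3 in the annotation, so reads of these pairs cannot be told apart. When each library was left out in turn, Rrp9 stayed past the threshold in both media. With phenylephrine Nop56 missed it without cardiomyocyte replicate 1 or 3 or either fibroblast library (adjusted p up to 0.131) and Nop58 without cardiomyocyte replicate 3 (0.0739) or fibroblast replicate 2 (0.136). In serum-free medium Fbl missed it without fibroblast replicate 1 (0.0518).

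Among the nucleolar proteins, 5 of 6 were lower in cardiomyocytes in both media, and Nolc1, a chaperone of small nucleolar particles, was called in neither (log2 -0.050 with phenylephrine and -0.037 without it). The share of all genes tested that were lower in both media was 25.9%, and with 6 genes the share of this role is coarse. Ddx21, an RNA helicase that acts on polymerase I transcripts, had 141, 133 and 126 CPM in cardiomyocytes with phenylephrine, against 175 and 174 CPM in fibroblasts with it (log2 -0.39 ± 0.065, edgeR adjusted p = 0.000232). Without phenylephrine it had 138, 133 and 134 CPM in cardiomyocytes, against 179 and 164 CPM in fibroblasts (-0.35 ± 0.065, adjusted p = 0.000536). No cardiomyocyte library reached the lowest fibroblast library. Mybbp1a had 166, 173 and 165 CPM in cardiomyocytes with phenylephrine, against 210 and 213 CPM in fibroblasts with it (log2 -0.33 ± 0.056, edgeR adjusted p = 0.000248). Without phenylephrine it had 170, 160 and 165 CPM in cardiomyocytes, against 208 and 200 CPM in fibroblasts (-0.31 ± 0.056, adjusted p = 0.000461). Gnl3, whose cardiomyocyte values stand above, had 79.9 and 77.7 CPM in fibroblasts with phenylephrine and 87.2 CPM in both fibroblast libraries without it, and was lower in cardiomyocytes by -0.37 ± 0.063 (edgeR adjusted p = 0.000295) and -0.30 ± 0.063 (adjusted p = 0.00117). Ncl differed by -0.24 and -0.23, and Npm1, the histone chaperone nucleophosmin, by -0.27 and -0.29, with and without phenylephrine. Npm1 has near-identical processed copies in mammalian genomes and Gnl3 overlaps Pbrm1, so their single values carry this limit. Ddx21, Mybbp1a and Gnl3 stayed past the threshold in both media with each library left out, whereas Npm1 and Ncl missed it without serum-free fibroblast replicate 1 (edgeR adjusted p = 0.0697 and 0.188) and, with phenylephrine, without fibroblast replicate 2 (0.0601 and 0.0997).

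The box H/ACA particles, which guide pseudouridylation, were split. Nop10 was higher in cardiomyocytes: it had 32.8, 34.4 and 37.1 CPM in cardiomyocytes with phenylephrine, against 25.3 and 24.3 CPM in fibroblasts with it (1.40-fold, log2 0.49 ± 0.10, edgeR adjusted p = 0.00139). Without phenylephrine it had 42.9, 34.4 and 42.4 CPM in cardiomyocytes, against 25.4 and 24.0 CPM in fibroblasts (1.62-fold, 0.69 ± 0.10, adjusted p = 9.29e-05). The cell types did not overlap in either medium. Gar1, another core protein of the same particle, was lower: it had 15.4, 14.8 and 13.6 CPM in cardiomyocytes with phenylephrine, against 18.4 and 19.9 CPM in fibroblasts with it (1.31-fold lower, log2 -0.39 ± 0.089, edgeR adjusted p = 0.00223). Without phenylephrine Gar1 had 14.9, 14.3 and 14.6 CPM in cardiomyocytes, against 21.3 and 19.95 CPM in fibroblasts (1.41-fold lower, -0.50 ± 0.088, adjusted p = 0.000381). Dkc1 was lower in cardiomyocytes with phenylephrine (log2 -0.56 ± 0.13, edgeR adjusted p = 0.00424) and was not called without it (-0.15 ± 0.14, adjusted p = 0.347). Nhp2 was too low to judge.

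In polymerase I transcription, subunits and regulators also differed in direction. Polr1c, a subunit that polymerases I and III share, had 51.9, 49.7 and 57.9 CPM in cardiomyocytes with phenylephrine, against 38.3 and 34.3 CPM in fibroblasts with it (1.46-fold higher, log2 0.55 ± 0.082, edgeR adjusted p = 0.000107). Without phenylephrine it had 50.9, 49.1 and 51.4 CPM in cardiomyocytes, against 36.5 and 34.4 CPM in fibroblasts (1.43-fold, 0.51 ± 0.082, adjusted p = 0.000179), with no overlap in either medium. Polr1a was higher with phenylephrine (0.23 ± 0.071, edgeR adjusted p = 0.0140) and not called without it (0.090). Ubtf, the architectural factor of ribosomal RNA genes, was lower with phenylephrine (-0.31 ± 0.080, adjusted p = 0.00533), as was Taf1d (-0.36 ± 0.10, adjusted p = 0.00869), and Rrn3 was lower without it (-0.20 ± 0.059, adjusted p = 0.00893). Polr1b, the second largest subunit, was called in neither medium (-0.15 and -0.054 with and without phenylephrine). Polr1c stayed past the threshold with each library left out. Polr1a missed it without cardiomyocyte phenylephrine replicate 2 or either fibroblast phenylephrine library (adjusted p up to 0.0853), Taf1d without fibroblast phenylephrine replicate 1 (0.0629) and Rrn3 without serum-free fibroblast replicate 1 (0.1145).

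Of the 8 small subunit assembly genes, Tsr1, a late maturation factor, was lower in cardiomyocytes with phenylephrine (-0.18, edgeR adjusted p = 0.0333) and without it (-0.28, adjusted p = 0.00305). Nop14 was lower without phenylephrine (-0.19, adjusted p = 0.0337) and Rrp12 higher without it (0.28, adjusted p = 0.0189). The other 5, namely Wdr43, Wdr3, Heatr1, Bysl and Ltv1, were called in neither medium and lay between -0.54 and 0.020. Of the 9 large subunit genes, Pes1, a subunit of the PeBoW complex, was lower in both media. It had 74.7, 76.8 and 72.1 CPM in cardiomyocytes with phenylephrine, against 102 and 91.9 CPM in fibroblasts with it (log2 -0.38 ± 0.073, edgeR adjusted p = 0.000725). Without phenylephrine it had 80.6, 73.8 and 86.0 CPM in cardiomyocytes, against 92.7 and 92.4 CPM in fibroblasts (-0.21 ± 0.073, adjusted p = 0.0252). Bop1 and Wdr12, the other members of the same complex, were not called in either medium (Bop1 -0.18 and 0.036, Wdr12 0.053 and 0.17, with and without phenylephrine). Nop2 (-0.18) and Nip7 (-0.36) were lower with phenylephrine. In the annotation Tsr1 overlaps Srr and snoRNA genes, Wdr3 overlaps Spag17, Wdr12 overlaps Carf, and Bop1 overlaps Mroh1 and Scx. Reads of these neighbours cannot be told apart from their own. Several of the calls above turned on single libraries. Tsr1 with phenylephrine missed the threshold without cardiomyocyte phenylephrine replicate 2 or 3 or either fibroblast phenylephrine library (adjusted p up to 0.226), and Nop2 without cardiomyocyte phenylephrine replicate 1 or 2, serum-free cardiomyocyte replicate 3 or either fibroblast phenylephrine library (up to 0.145). In serum-free medium Nop14 missed it without cardiomyocyte replicate 2 or 3 or fibroblast replicate 1 (up to 0.208), Rrp12 without cardiomyocyte replicate 1 or either fibroblast library (up to 0.0925), and Pes1 without cardiomyocyte replicate 1 or 2 or either fibroblast library (up to 0.0919).

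The cultures differed in their other cells too. Leukocyte markers summed to 134 to 214 CPM over all cardiomyocyte libraries and 21.1 to 35.8 CPM over all fibroblast libraries, with 9 of 10 called higher in cardiomyocytes with phenylephrine and 10 of 10 without it, while markers of dividing cells summed to 564 to 964 and 623 to 818 CPM. The 6 endothelial markers summed to 60.8 to 84.0 CPM in cardiomyocytes with phenylephrine, against 40.6 to 43.1 CPM in fibroblasts with it, and to 58.1 to 68.6 CPM in cardiomyocytes without it, against 27.7 to 31.9 CPM in fibroblasts without it. Of these 6, 4 were called higher and 2 lower in cardiomyocytes in each medium, and Kdr, the main receptor for vascular endothelial growth factor, had 12.4 to 25.9 CPM in cardiomyocytes and 0.0553 to 0.261 CPM in fibroblasts. The 5 epicardial markers summed to 90.4 to 126 CPM in cardiomyocytes with phenylephrine, against 39.96 to 40.6 CPM in fibroblasts with it, and to 103 to 116 CPM in cardiomyocytes without it, against 28.8 to 42.0 CPM in fibroblasts without it. Of these 5, 3 were called higher and 1 lower with phenylephrine, and 4 higher and none lower without it. Of the 5 smooth muscle and pericyte markers, 3 were called higher and 1 lower with phenylephrine, and 2 higher and 2 lower without it. No marker of these lists was at 0 in any group. The part of RNA of these other cells in the cardiomyocyte values was not tested.

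Other genes of the pathway were read from lists written from general knowledge. Ribosomal proteins showed the broadest difference: of 63 tested, 62 were lower in cardiomyocytes with phenylephrine and 58 without it, none was higher, and the medians were -0.61 and -0.45. The shares called lower were 98.4% with phenylephrine and 92.1% without it, against 31.2% and 31.7% of all genes. Rps16, of the small subunit, had 637, 570 and 589 CPM in cardiomyocytes with phenylephrine, against 1288 and 1327 CPM in fibroblasts with it (2.18-fold lower, edgeR adjusted p = 6.56e-08), and Rpl28, of the large subunit, was 1.79-fold lower in cardiomyocytes with phenylephrine (adjusted p = 2.23e-07). The summed level of the ribosomal proteins was 23170 to 25700 CPM in cardiomyocytes with phenylephrine, 26590 to 27150 CPM in cardiomyocytes without it, 37260 to 37500 CPM in fibroblasts with it and 36250 to 36960 CPM in fibroblasts without it. Ribosomal protein genes have many processed copies, so single values are uncertain.

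With phenylephrine in cardiomyocytes 4 of the 63 ribosomal proteins were called lower, Rps21 (log2 -0.31), Rps28 (-0.29), Rps14 (-0.27) and Rpl10 (-0.27), and none higher, with a median of -0.16 over the 63. The share called lower was 6.35%, against 1.84% of all genes. The sums did not overlap between the groups. The count depended on the setting: it was 51 without both libraries that stood apart, 27 without cardiomyocyte phenylephrine replicate 1, 13 without serum-free cardiomyocyte replicate 2, 16 with DESeq2, and 0 in a fit of the compared groups alone and without any one of the other 4 cardiomyocyte libraries or either fibroblast phenylephrine library. Calls over all genes, in either direction, moved with these settings too. In the same order they were 3486 of 13786, 1084 of 13838, 2371 of 13832, 939 of 13429 and 91 of 13316 genes, and 32 to 166 genes in the last fits. In fibroblasts none of the 63 was called, with a median of 0.027, where 2.06% of all genes were called higher and 1.77% lower. Rps15, Rps21 and Rps28 were called lower in their response in cardiomyocytes than in fibroblasts (4.76% of the 63, against 1.62% of all genes).

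The other assembly factors were called lower in cardiomyocytes about as often as all genes tested, of which 31.2% were called lower and 33.7% higher with phenylephrine, and 31.7% and 34.5% without it. Of 45 other small subunit factors, 14 were lower and 4 higher with phenylephrine (31.1% and 8.89%), and 15 lower and 4 higher without it (33.3% and 8.89%). Of 49 other large subunit factors, 17 were lower and 6 higher with phenylephrine (34.7% and 12.2%), and 15 lower and 5 higher without it (30.6% and 10.2%). Of 15 exosome and trimming genes, 3 were lower and none higher with phenylephrine (20% lower), and 5 lower and 1 higher without it (33.3% and 6.67%). The shares called higher were thus below those of all genes in these 3 lists. Pdcd11, an early small subunit factor, was lower in cardiomyocytes with (log2 -0.66) and without phenylephrine (-0.84), as was Utp20 (-0.46 and -0.65), while Imp4 was higher (0.54 and 0.57). Among 27 other genes of polymerases I and III, 11 were lower and 6 higher with phenylephrine (40.7% and 22.2%), and 12 lower and 5 higher without it (44.4% and 18.5%). Polr3g, an alternative polymerase III subunit known from undifferentiated cells, was lower in cardiomyocytes (-0.84 and -0.93, with and without phenylephrine). Imp4 overlaps Ccdc115 and Polr3g overlaps Mblac2 in the annotation, so reads of these pairs cannot be told apart.

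Phenylephrine called few of these genes, as of all genes tested (1.79% higher and 1.84% lower in cardiomyocytes, 2.06% and 1.77% in fibroblasts). Wdr75, a small subunit factor that binds the nascent ribosomal RNA precursor, rose in cardiomyocytes and fell in fibroblasts. It had 59.2, 70.6 and 66.7 CPM in cardiomyocytes with phenylephrine, against 43.1, 53.1 and 42.8 CPM without it (1.42-fold higher, log2 0.50 ± 0.095, edgeR adjusted p = 0.0236). In fibroblasts it had 57.3 and 58.2 CPM with phenylephrine, against 87.6 and 76.6 CPM without it (1.42-fold lower, -0.51 ± 0.12, adjusted p = 0.0347). No library with phenylephrine overlapped one without it in either cell type, and the responses differed by 1.01 ± 0.15 (edgeR adjusted p = 0.00625 for the interaction). The rise in cardiomyocytes missed the threshold without cardiomyocyte phenylephrine replicate 2 or 3, serum-free cardiomyocyte replicate 1 or 3 or either fibroblast phenylephrine library (adjusted p up to 0.119), the fall in fibroblasts without cardiomyocyte phenylephrine replicate 3, either fibroblast phenylephrine library or serum-free fibroblast replicate 1 (up to 0.302), and the interaction without either fibroblast phenylephrine library (up to 0.0542). Wdr75 was the only one of the 45 other small subunit factors called in either cell type (2.22% in each). Bdp1, a subunit of the polymerase III factor TFIIIB, fell in fibroblasts (-0.34, edgeR adjusted p = 0.0369), and this call was lost without any one of the 4 fibroblast libraries (up to 0.283), cardiomyocyte phenylephrine replicate 3 or serum-free cardiomyocyte replicate 3.

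The Myc network, which holds partners and antagonists of Myc, was not called with phenylephrine for any of its 10 tested genes in either cell type. Of all genes, 1.79% were called higher and 1.84% lower in cardiomyocytes, and 2.06% and 1.77% in fibroblasts. At these shares a list of this size may hold no call, so a lack of response is not shown. Between cell types 4 were lower and 2 higher in cardiomyocytes with phenylephrine, and 6 lower and 2 higher without it, with medians of -0.19 and -0.32. The shares called lower were 40% with phenylephrine and 60% without it, against 31.2% and 31.7% of all genes. The share called higher was 20% in each medium, against 33.7% and 34.5% of all genes. With 10 genes these shares are coarse. Mnt, a repressor that competes with Myc for Max, was lower by -0.94 with phenylephrine (edgeR adjusted p = 1.38e-06) and -0.53 without it (adjusted p = 0.000148). Max, the obligate partner, was lower by -0.34 and -0.32, Mga by -0.44 and -0.55, and Mxd4 by -0.79 and -0.54, the last of these not without serum-free fibroblast replicate 2 (adjusted p = 0.0937). Of 26 other known Myc targets, 13 were higher and 10 lower in cardiomyocytes, the same counts in both media. These are shares of 50% higher and 38.5% lower, against 33.7% and 31.2% of all genes with phenylephrine and 34.5% and 31.7% without it. Ldha, lactate dehydrogenase A, was 4.57-fold higher with phenylephrine and 4.26-fold without it, Ccnd2, a cyclin, was 1.72-fold and 1.65-fold higher, and Slc7a5, an amino acid transporter, was 2.68-fold and 2.59-fold lower. None of the 26 was called with phenylephrine in either cell type, against the same small shares of all genes as for the Myc network.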

How the data were processed

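RNA-seq libraries were made with an Illumina TruSeq RNA kit, 10 on 1 lane, per the labels' protocols. Per the submitters' processing notes, tools were cutadapt, TopHat2 2.0.10, HTSeq 0.6.1p1 and DESeq2 1.6.3 with the rat build Rnor_6.0. The authors deposited whole-number read counts per gene symbol without normalization, and 10 further per-library columns were not used here. A quasi-likelihood model with a term for each group was fitted in edgeR 4.0.16 (R 4.3.3) to the 10 libraries, after filterByExpr (minimum count 10, total 15) and trimmed-mean (TMM) scaling, and 5 contrasts were tested on both sides. The threshold for a call was 0.05 after Benjamini-Hochberg adjustment over the 13869 genes of a contrast. The ± after a log2 value is its standard error. Depth was 18048944 to 22794744 counts per library. The 38 genes and all lists were chosen with earlier results of these data known. Named were Myc, every called member, values per library for the called members of smallest adjusted p (up to 8 per contrast) and up to 4 called genes of smallest adjusted p per pathway list. Alternatives were relative log expression factors, library size alone, DESeq2 1.42.0, limma-voom (limma 3.58.1), no filter, a filter at 10 CPM, the compared groups alone, a replicate block, leaving out each library, and leaving out both that stood apart. The script was tested on simulated data. RefSeq promoter sequences and gene overlaps are from GRCr8, which is not the build of the counts.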

Additional observations from a re-analysis of the deposited data

Results flagged for a closer look

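None of the 38 genes was called different in its phenylephrine response between the cell types. Among the other genes of the pathway, edgeR's interaction test called 6. These were 1 of 45 other small subunit factors (2.22%), 1 of 27 other polymerase I and III genes (3.7%), 3 of 63 ribosomal proteins (4.76%) and 1 of 26 other Myc targets (3.85%). None was called in the other lists of the pathway. Of all genes tested, 1.63% were called higher and 1.62% lower, so single calls in lists of this size are near that share. Each of the 6 is given as the response of cardiomyocytes minus that of fibroblasts on the log2 scale. Wdr75 had the largest, at 1.01 (adjusted p = 0.00625), and it kept its direction in all 18 alternatives, with adjusted p between 2.85e-07 and 0.0542 and 2 of them short of the threshold. Bdp1 differed by 0.45 (adjusted p = 0.0333), with 50.5, 57.0 and 51.4 CPM in cardiomyocytes with phenylephrine, against 46.8, 50.04 and 49.7 CPM without it, and 40.4 and 41.7 CPM in fibroblasts with it, against 50.8 and 52.8 CPM without it. Phb2, a prohibitin of the mitochondrial inner membrane, differed by -0.37 (adjusted p = 0.0423), with 152, 155 and 168 CPM in cardiomyocytes with phenylephrine, against 184, 173 and 174 CPM without it, and 137 and 136 CPM in fibroblasts with it, against 119 and 116 CPM without it. Among ribosomal proteins Rps15 differed by -0.45 (adjusted p = 0.0230), Rps21 by -0.47 (adjusted p = 0.0327) and Rps28 by -0.44 (adjusted p = 0.0421). For these 5 genes the direction held in all 18 alternatives, and the call was lost in 10 of them for Bdp1, 8 for Phb2, 8 for Rps15, 9 for Rps21 and 9 for Rps28.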

How the results depend on the processing

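With phenylephrine in cardiomyocytes, members called lower numbered 1 as reported (1.84% of all genes), 2 with library size alone (2.86%), 2 with DESeq2 (3.29%), 0 in the compared groups alone (0.308%), 6 without both libraries that stood apart (12.1%), and 0 to 5 when each library was left out (0.0794% to 7.93%). Over the fits given singly here, the members' counts were higher where more of all genes were called. The median over the 38 genes was -0.084 with library size alone and -0.059 to -0.028 with each library left out. Library size alone moved the median of all genes to -0.054 there, -0.086 for the difference of responses and 0.090 between cell types in serum-free medium. In fibroblasts 1 member was called higher in the compared groups alone (5.71% of all genes), and the median ran from -0.069 to 0.048 with each library left out. For the difference of responses the median was -0.11 with library size alone and -0.075 to 0.014 with each library left out, and 1 member was called lower without both libraries that stood apart (8.83% of all genes). Between cell types in serum-free medium the median was -0.085 with library size alone, 5 members were higher without both libraries that stood apart (36.3% of all genes), and each library left out gave 2 to 5 higher (29.7% to 35.1%) and 8 to 15 lower (27% to 32.3%), with 5 higher without serum-free cardiomyocyte replicate 2 and 8 lower without serum-free fibroblast replicate 1. With phenylephrine the same gave medians of -0.19 to -0.14, 2 to 3 higher (27.9% to 35.1%) and 11 to 18 lower (24.8% to 32.5%), with 11 lower without fibroblast phenylephrine replicate 2. The difference of Myc between cell types with phenylephrine, -0.022 as reported, turned positive without cardiomyocyte phenylephrine replicate 3 (0.11) or fibroblast phenylephrine replicate 1 (0.037), within -0.15 to 0.11 over all libraries left out. The causes were not tested.

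Deviations from the group mean were correlated between libraries with and without phenylephrine. For the same replicate number r was -0.22, -0.10 and 0.020 in cardiomyocytes and -0.041 in fibroblasts. Cardiomyocyte libraries with different numbers gave r from -0.14 to 0.18. In fibroblasts the deviations within a group mirror each other, so r could only be 0.041 or -0.041. With so few libraries per group, these values cannot decide if the numbers pair the samples. With the number as a replicate block Myc differed by 0.014 between cell types with phenylephrine, 1 gene was lower with phenylephrine in cardiomyocytes and 0 were called in fibroblasts, and between cell types 3 were higher and 13 lower in each medium. Nhp2, Ebna1bp2 and Heatr1, at 4 to 30 counts per library, could have shown large changes alone.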
